A study of Mus musculus with 93 samples.

Results

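Lhx2, Ldb1, Emx1 and Emx2 encode nuclear factors of the odorant receptor enhancer and promoter machinery. They were found by their gene symbols in the deposited annotation, 4 of 32747 gene symbols (32975 table entries), and are described here across 85 single cells of mouse olfactory neurogenesis. The mice were C57BL/6, and each cell was picked by hand after the olfactory epithelium had been dissociated, then turned into oligo(dT)-primed, PCR-amplified cDNA. By label, 25 of them are Mature, 13 Late Immature and 27 Early Immature Neurons (65 cells, called neurons in what follows), and the earlier stages hold 9 Precursor and 11 Progenitor cells. Another 8 libraries are technical repeats of 8 of these cells, and first libraries were used unless a repeat is named. The labels state no animal, age, sex or treatment, and the basis of the stage labels is not stated either. Each stage therefore counts as 1 sample: no test between stages was made, every SD is a spread over cells, and a difference of at least 1 log2 unit is called higher or lower as a size only.

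Lhx2 is a homeodomain factor with LIM domains, and its LIM domains work by binding the cofactor Ldb1, which bridges LIM factors bound at distant sites of the genome. In olfactory sensory neurons, Lhx2 and Ebf proteins bind the enhancers called Greek islands, and Ldb1 is recruited to them through Lhx2. Those enhancers lie in receptor gene clusters and contact the receptor allele that a neuron expresses. Emx2 is a homeodomain factor that binds receptor promoters and on which the expression of many receptor genes depends, and Emx1 is its paralog, best known from the cerebral cortex.

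Lhx2 (ENSMUSG00000000247.5) lies on the plus strand of mm10 chr2:38339281-38369733 and has up to 5 exons in the deposited annotation. Ldb1 (ENSMUSG00000025223.8) lies on the minus strand at chr19:46032593-46045214, with up to 11 exons. Emx1 (ENSMUSG00000033726.8) lies on the plus strand at chr6:85187438-85204358, with 3 exons. Emx2 (ENSMUSG00000043969.4) lies on the plus strand at chr19:59458372-59465357, also with 3 exons. The antisense gene Emx2os, at chr19:59425104-59458635, shares 264 exon bases with Emx2, and Pprc1 shares 177 exon bases with Ldb1 on the opposite strand. The library kit named in the labels does not mark strand, so reads in these shared stretches cannot be assigned to one gene or the other.

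Levels are FPKM (fragments scaled by transcript length and library size) as deposited, and a gene with an FPKM of 1 or more counts as detected in that cell. The tables hold no counts. Steps between low values put 1 FPKM at about 0.556 to 9.73 fragments per kb, depending on the cell (median 5.54). This is approximate, since a median of 60.5% of the low values lay on such steps. Between 2648 and 6414 genes were detected per cell. The stage landmarks Gap43 and Omp were compared with the labels. Gap43, a growth cone protein, was detected in 25 of 27 Early Immature Neuron cells, and Omp, the olfactory marker protein, in 13 of 13 Late Immature and 25 of 25 Mature Neuron cells. Gap43 was also detected in 4 of 11 Progenitor, 8 of 9 Precursor, 8 of 13 Late Immature and 0 of 25 Mature Neuron cells. Omp was also detected in 2 of 11 Progenitor, 3 of 9 Precursor and 21 of 27 Early Immature Neuron cells. Detection of these 2 genes alone thus did not separate neighbouring stages. Their levels differed more between Early and Late Immature Neuron cells. Median Omp was 49.4 and 4584 FPKM, and median Gap43 was 359.9 and 1.19. Single cells still overlapped, with Omp up to 6224 in Early and from 2724 in Late Immature Neuron cells. RNA of other cell types was present as well. Summed FPKM of 4 sustentacular markers reached 100 in 28 cells, 15 of them Mature Neuron cells, and the neutrophil genes S100a8 and S100a9 both reached 100 in 9 cells, 8 of them Progenitor cells. The horizontal basal cell markers were detected in 0 Progenitor cells. Cell numbers fall into 4 ranges, of which only D316 to D434 holds all 5 stages. The labels do not say what the numbers stand for.

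Lhx2 RNA was detected in nearly every cell at every stage and stood highest in Precursor cells. It was detected in 84 of 85 cells, the exception being the Early Immature Neuron D357, at an FPKM of 0.860. In Progenitor cells its FPKM ran from 1.77 (D184) over a median of 93.2 to 1242 (D172). In Precursor cells it ran from 19.7 (D383) over a median of 514 to 1323 (D398), and 8 of 9 cells exceeded 100. In Early Immature Neuron cells the lowest value was 0.860, the median 145 and the highest 1156 (D200). Late Immature Neuron cells were the most alike, from 23.9 (D230) over 128 to 260.8 (D199), and Mature Neuron cells ran from 3.31 (D81) over 79.5 to 746 (D240). The ranges of all 5 stages overlapped. A few cells in several stages stood far below the rest of their stage: D184 and D174 (3.39) among Progenitor cells, D357, D431 (1.43) and D317 (1.66) among Early Immature Neuron cells, and D81 and D254 (3.34) among Mature Neuron cells. D184 and D174 belonged to the cells with S100a8 and S100a9, and D357, D317, D81 and D254 to those with sustentacular RNA (183, 495.5, 1005 and 606 FPKM over the 4 markers). D431 belonged to neither set. Of the cells with the highest Lhx2 in these stages, D172 was in both sets, D240 in the sustentacular set and D200 in neither. These sets thus held cells with high as well as low Lhx2. The part of RNA of other cell types in the Lhx2 levels was not tested. Low values of a gene also occurred beside a cell of the same number range with much of it. The odorant receptor gene Olfr860 was at 9610 FPKM in D192 and at 4.18, 8.42 and 9.03 in D178, D195 and D205. Whether values this low, among them Lhx2 at 0.860 to 3.39, are RNA of the cell itself was not tested.

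The mean log2(FPKM + 1) of Lhx2 was 8.64 ± 1.78 (SD, n = 9 cells) in the Precursor and 6.51 ± 2.91 (n = 11) in the Progenitor stage. Among neurons it was 7.05 ± 2.48 (n = 27) in the Early Immature, 6.92 ± 0.93 (n = 13) in the Late Immature and 6.20 ± 1.95 (n = 25) in the Mature stage. Precursor cells thus exceeded Progenitor cells by 2.14 log2 units, and 20.1% of the 4321 genes compared were at least 1 unit higher. Lhx2 was 1.59 units lower in Early Immature Neuron than in Precursor cells, a pair in which 28.0% of 4006 genes were at least 1 unit lower. The difference was -0.13 from Early to Late Immature Neuron and -0.72 from there to Mature Neuron, both under 1 unit. Between Progenitor and Mature Neuron cells it was -0.31. In order of mean, Precursor came first, followed by Early Immature, Late Immature, Progenitor and Mature Neuron. Each neighbouring pair in that order differed by less than the larger of its SDs. Both called differences remained past 1 unit when any single cell was left out, with ranges of 1.63 to 2.67 and -2.13 to -1.36. Without the cells with S100a8 and S100a9, the Progenitor to Precursor difference was 1.24 units, and the Progenitor to Mature Neuron difference passed the size, at -1.06. The 8 Progenitor cells left out were all those numbered D168 to D205, and the 3 that remained were all numbered D316 to D434. These RNAs and the range of cell numbers cannot be told apart in Progenitor cells.

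**Figure D1:**
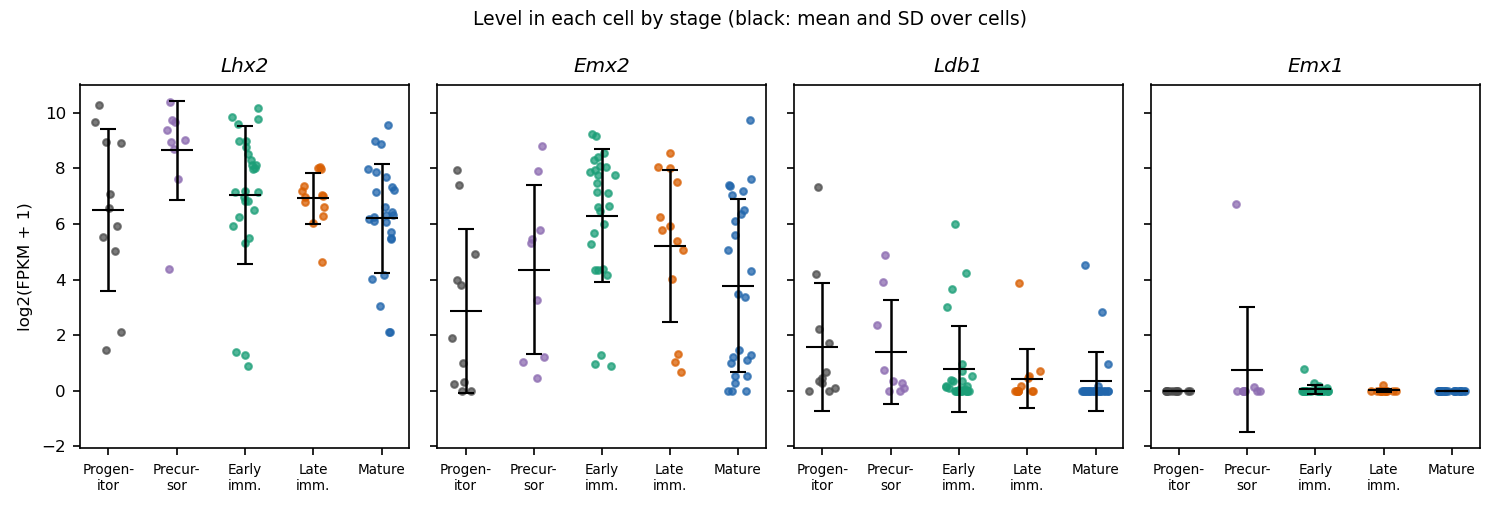
Level of Lhx2, Emx2, Ldb1 and Emx1 in each of the 85 cells, as log2(FPKM + 1) on the vertical axis, by stage on the horizontal axis; each point is 1 cell, and black marks are the mean and SD over cells. Lhx2 is above the floor in nearly every cell, and Emx2 spreads from almost no RNA to above 100 FPKM in each stage. Ldb1 is detected in 14 cells, and Emx1 in 1 Precursor cell.

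Emx2 had its highest mean in Early Immature Neuron cells, 1 stage after Lhx2. Of the Progenitor cells, 7 of 11 had detected Emx2 (63.6%, 95% interval by the exact Clopper-Pearson method 30.8% to 89.1%) as had 8 of 9 Precursor cells (88.9%, 51.8% to 99.7%). It was detected in 25 of 27 Early Immature (92.6%, 75.7% to 99.1%), 12 of 13 Late Immature (92.3%, 64.0% to 99.8%) and 18 of 25 Mature Neuron cells (72.0%, 50.6% to 87.9%). These intervals cover counting error only, since PCR copies are not independent molecules, and they overlap between all stages.

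The FPKM of Emx2 in Progenitor cells ran from 0 over a median of 2.77 to 241 (D172), and in Precursor cells from 0.376 (D383) over 38.7 to 444 (D398). In Early Immature Neuron cells it ran from 0.874 (D371) over 136 to 596 (D331), and 14 of 27 cells reached 100. In Late Immature Neuron cells it ran from 0.586 (D250) over 53.9 to 378.2 (D77). Mature Neuron cells held the extremes: Emx2 was listed at 0 in D213, D223 and D255 and reached 861 in D81, with a median of 10.1. The ranges of all stages overlapped, and each stage held cells with almost no Emx2 beside cells above 100.

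The mean log2(FPKM + 1) of Emx2 was 2.86 ± 2.94 (SD, n = 11 cells), 4.36 ± 3.03 (n = 9), 6.29 ± 2.39 (n = 27), 5.20 ± 2.72 (n = 13) and 3.79 ± 3.12 (n = 25) in the order of the stages. It was thus 1.50 log2 units higher in Precursor than in Progenitor cells and another 1.93 higher in Early Immature Neuron cells, a pair in which 22.0% of genes were at least 1 unit higher. From Early to Late Immature Neuron it was lower by 1.09 units (-1.09), with 16.0% of 4144 genes at least 1 unit lower. From Late Immature to Mature Neuron it was lower again (-1.41), with 32.7% of 3835 genes at least 1 unit lower and a median of -0.58 over all genes compared. In order of mean, Early Immature Neuron came first, followed by Late Immature, Precursor, Mature Neuron and Progenitor, and each neighbouring pair differed by less than the larger of its SDs. The first of these differences was 0.94 without D398. That between Early and Late Immature Neuron went under 1 unit without any one of D331 (-0.98), D424 (-0.98), D230 (-0.77), D234 (-0.99), D250 (-0.71) or D334 (-0.75), and was -0.64 in the range D316 to D434. The difference of 0.92 between Progenitor and Mature Neuron cells, under 1 unit, turned to -0.35 without the cells with sustentacular RNA, and without them the last neuronal difference was -3.31. The Mature Neuron mean also differed by range of cell numbers. It was 2.58 in D213 to D274 (n = 16 cells), 4.57 in D316 to D434 (n = 4) and 7.03 in D29 to D97 (n = 5). Within D316 to D434, the difference from Late Immature to Mature Neuron was -1.275. The part of the ranges in the stage differences was not tested.

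The 2 homeobox genes held different ranks within cells at different stages. Lhx2 exceeded Emx2 in all 11 Progenitor and all 9 Precursor cells, by a median ratio of FPKM of 16.5 (9 of 11 cells with Emx2 above 0) and 15.4. It did so in 16 of 27 Early Immature, 10 of 13 Late Immature and 18 of 25 Mature Neuron cells, with median ratios of 1.33, 2.37 and 3.13. FPKM is scaled by transcript length, and whether the coverage of this oligo(dT)-primed cDNA follows length was not tested. Single neurons went both ways: D371 held Lhx2 at 918 and Emx2 at 0.874, and D81 held Lhx2 at 3.31 and Emx2 at 861. Both genes were detected together in 69 cells, Lhx2 without Emx2 in 15, and in none of the 85 cells were both under an FPKM of 1.

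Cells with more Lhx2 held more Emx2 before the neuronal stages, and this was not seen among neurons. Spearman's rho of their levels was 0.79 over 11 Progenitor cells and 0.78 over 9 Precursor cells. Without the 2 cells farthest from the median Lhx2 it was 0.62 and 0.54. It was 0.03 over 27 Early Immature, -0.13 over 13 Late Immature and -0.07 over 25 Mature Neuron cells. These are descriptions over cells that share a library protocol and a scaling. In Progenitor cells both genes also went with the number of genes detected, Lhx2 with a rho of -0.80 and Emx2 with -0.70, and the part of that in their relation was not tested.

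**Figure D2:**
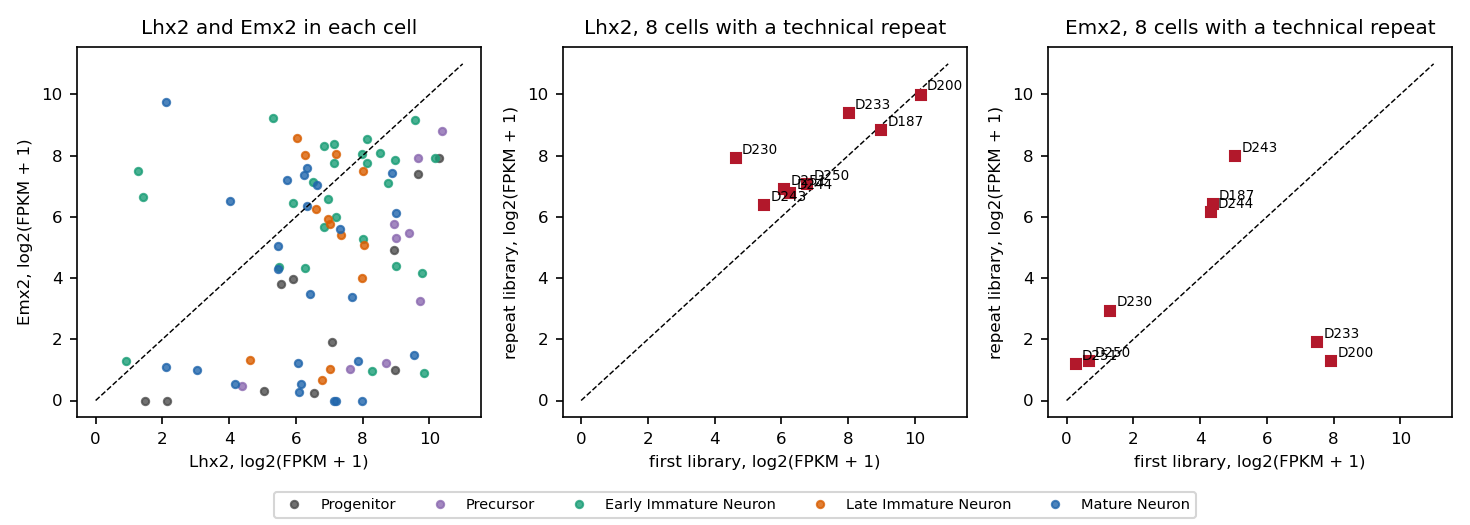
Left, Emx2 against Lhx2 as log2(FPKM + 1) in each of the 85 cells, coloured by stage; centre and right, the repeat library against the first library for Lhx2 and Emx2 in the 8 cells with both, on the same scale, with a dashed line of equal values. All 20 Progenitor and Precursor cells lie below the line of the left panel; Lhx2 repeats lie near the line except D230 and D233, while Emx2 in D200 and D233 is high in the first library and low in the repeat.

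The repeat libraries show how far 2 measurements of 1 cell can lie apart. Lhx2 differed by a median of 0.67 log2 units and by less than 1 in 6 of 8 cells, for example 506 against 453 FPKM in D187 and 1156 against 1021 in D200. It differed most in D230, with 23.9 in the first library and 243.02 in the repeat, and that first library is the lowest Late Immature Neuron value. Emx2 differed by a median of 1.94 units and by up to 6.63. In D200 it was 242.3 in the first library and 1.46 in the repeat, in D233 it was 181 and 2.76, and in D243 it was 32.1 and 250.8. Only D250 (0.586 and 1.43) and D251 (0.205 and 1.29), low in both libraries, stayed within 1 unit. The technical spread of Emx2 was thus wide for a single library, and a low Emx2 value in 1 library does not show that a cell lacked the RNA. Stage means average over 9 to 27 cells, so that this spread cannot be set directly against the differences between them. Its part in those differences was not tested.

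Emx2os, the antisense RNA that begins beside the Emx2 start, was detected in 21 of 85 cells. Both were detected in 19 cells, Emx2 alone in 51, Emx2os alone in 2 and neither in 13. Emx2 reached an FPKM of 100 in 28 cells, and 5 of these had detected Emx2os. Emx2os was detected in 4 of 11 Progenitor, 1 of 9 Precursor, 8 of 27 Early Immature, 2 of 13 Late Immature and 6 of 25 Mature Neuron cells, with a highest FPKM of 113. Its rho with Emx2 was 0.50, 0.39, -0.35, 0.41 and -0.09 in the order of the stages, with no common direction.

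Ldb1, the cofactor through which Lhx2 acts at enhancers, was detected in few cells and mostly at low levels. Of the Progenitor cells, 4 of 11 had detected Ldb1 (36.4%, exact interval 10.9% to 69.2%), as had 3 of 9 Precursor cells (33.3%, 7.49% to 70.1%) and 4 of 27 Early Immature Neuron cells (14.8%, 4.19% to 33.7%). It was detected in 1 of 13 Late Immature (7.69%, 0.195% to 36.0%) and 2 of 25 Mature Neuron cells (8.0%, 0.984% to 26.0%). Median FPKM was 0.365, 0.276, 0.0767, 0 and 0 in the order of the stages. The highest values were 160.1 in the Progenitor D170, 62.6 in the Early Immature Neuron D215, 28.2 in the Precursor D319, 21.8 in the Mature Neuron D316 and 13.8 in the Late Immature Neuron D199. Most cells of each stage lay under 1, and these few cells stood apart. Because it was detected in under 50% of cells at every stage, Ldb1 was not among the genes compared between stages. Its mean log2(FPKM + 1) was 1.58 ± 2.30, 1.41 ± 1.86, 0.78 ± 1.55, 0.44 ± 1.06 and 0.34 ± 1.05 (SD over the cells of each stage). Lhx2 exceeded Ldb1 in 85 of 85 cells.

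The low Ldb1 values are partly values of a few fragments: 3 fragments of its longest transcript (2295 bases) would give an FPKM of 0.236 in the median library and of up to 2.35 in the shallowest. At a threshold of 0.1, Ldb1 was found in 72.7% of Progenitor, 48.1% of Early Immature and 38.5% of Late Immature Neuron cells. It was listed at 0 in 2 of 9 Precursor and in 21 of 25 Mature Neuron cells. Ldb1 RNA at lower levels was not detectable at this depth. In the 8 cells with a repeat, Ldb1 was under 1 FPKM in 8 first libraries and 7 repeats, so that they say little about its technical spread. In D200 it was 0.110 and 1.76, and in D187 0.944 and 0. Pprc1, which shares exon bases with Ldb1, was detected in 3 of 11 Progenitor cells and in 0 of 25 Mature Neuron cells.

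Emx1, the paralog of Emx2, was detected in 1 of 85 cells, the Precursor D178, at an FPKM of 104 or about 1023 fragments. In that cell Emx2 was at 1.06 and Lhx2 at 194. Another 6 cells held between 0.0833 and 0.707 FPKM of Emx1, that is about 1 to 5 fragments each, and all 7 cells were numbered between D168 and D205. Emx1 was detected in 0 of 11 Progenitor cells, which allows a share of up to 27.3% by a limit of 3 cells (28.5% by the exact interval). It was detected in 0 of 25 Mature Neuron cells, which allows up to 12.0% (13.7% by the exact interval).

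Summed odorant receptor RNA stood at medians of 1076, 2569 and 6938 FPKM in the 3 neuronal stages, and the levels of Lhx2 and Emx2 in single neurons did not follow it. Over the 65 neurons, rho against the summed Olfr FPKM was -0.12 for Lhx2 (Pearson's r on the log2 scale 0.02) and -0.12 for Emx2 (r -0.14). Within stages rho was -0.12 for Lhx2 and 0.26 for Emx2 in Early Immature, -0.07 and -0.01 in Late Immature, and 0.21 and 0.01 in Mature Neuron cells. The middle 95% of 5884 genes lay between -0.38 and 0.40 over the 65 neurons. Without D347 and D205, the neurons farthest from the median sum, rho was -0.09 and -0.10. For Emx2 the value was 0.29 within the range D316 to D434. Ldb1 gave -0.39 over the neurons and -0.51 over Early Immature Neuron cells, but it was detected in 7 of 65 neurons, so that these values rest mostly on values near 0. Both quantities of each cell come from the same library and share its scaling.

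**Figure D3:**
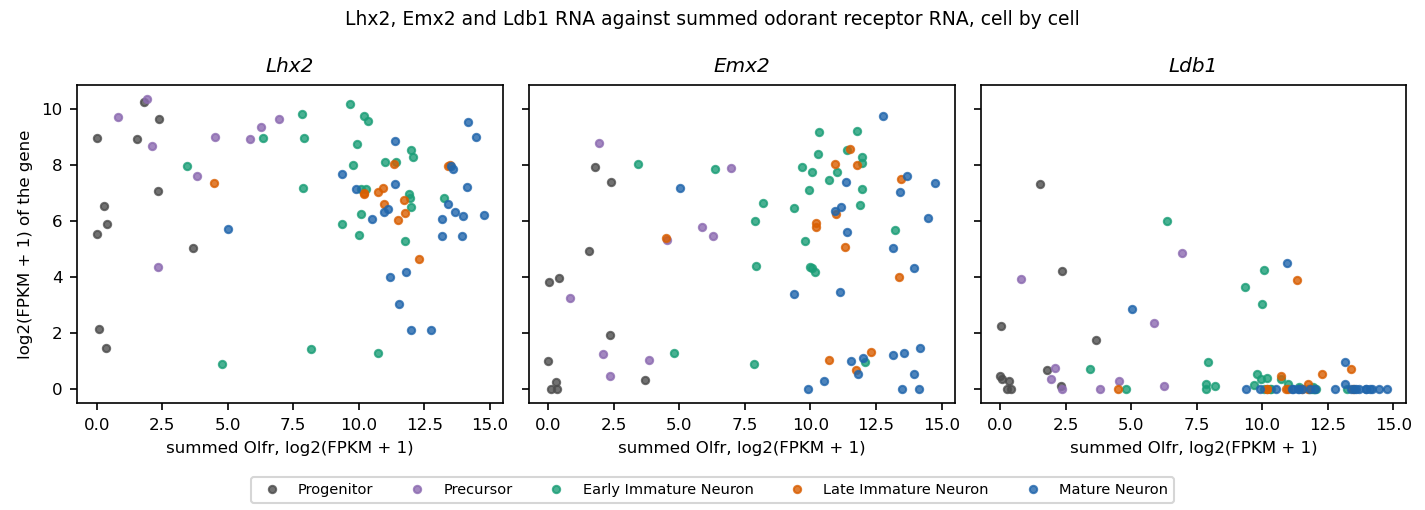
FPKM of Lhx2, Emx2 and Ldb1 (vertical axis, log2(FPKM + 1)) against the summed Olfr FPKM of the same cell (horizontal axis, same scale); each point is 1 cell, coloured by stage. Receptor RNA separates most Progenitor and Precursor cells on the left from neurons on the right, and within the neurons the values of Lhx2 and Emx2 spread without a slope.

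High receptor RNA was found in cells whose first library listed little Lhx2 or Emx2 RNA. D431, with Lhx2 at 1.43, expressed Olfr726 at 1580 FPKM, and D254, with Lhx2 at 3.34, expressed Olfr1200 at 4026. Of the Mature Neuron cells in which Emx2 was listed at 0, D255 expressed Olfr987 at 17840 FPKM and D223 expressed Olfr972 at 11160. D223 was the shallowest of the 85 first libraries (0.556 fragments per kb at 1 FPKM), where 3 fragments of Emx2 would give an FPKM of 1.85. These cells have no repeat library, and a low Emx2 value in 1 library does not show that the RNA was absent. In the other direction, 5 neurons had no receptor at an FPKM of 100 and differed in these factors. D215 held Lhx2 at 499, Emx2 at 232.8 and Ldb1 at 62.6. D347 held Lhx2 at 252.6 and Emx2 at 266, and D205 held 162 and 41.0. D329 held Lhx2 at 51.8 and Emx2 at 146. D357 held almost none of either, with 0.860 and 1.43. Of these 5 cells, D215, D329 and D357 carried sustentacular RNA (342.5, 636 and 183 FPKM over the 4 markers), and its part in these values was not tested.

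In 60 neurons a receptor led at an FPKM of at least 100. Of these receptors, 3 were class I genes, from a cluster on chromosome 7, which also carries class II receptors elsewhere. The 3 cells were Early Immature Neurons: D200 (Olfr610) held Lhx2 at 1156 and Emx2 at 242.3, D371 (Olfr661) held 918 and 0.874, and D394 (Olfr653) held 59.3 and 87.3. In the 57 neurons led by a class II receptor, Lhx2 ran from 1.43 over a median of 123 to 872, and Emx2 from 0 over 53.9 to 861. Lhx2 in D200 and D371 lay above all 57, and Emx2 in all 3 cells lay within their range. The count is 3 cells and the class was not compared further. The leading receptor can depend on the library: it was another one in the repeat of 3 of 8 cells, D200 (Olfr570 in place of Olfr610), D187 (Olfr917 in place of Olfr876) and D230 (Olfr810 in place of Olfr60).

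The promoters of the leading receptors were searched for short letters that homeodomain factors and Ebf proteins are known to prefer. RefSeq promoter windows (build GRCm38.p6, the 250 bases before each start) were present for 43 of 59 leading receptors. TAATTA or TAATTG, searched on both strands, was present in 12 of these 43 windows (27.9%), in 36.6% of 948 Olfr windows and in 11.3% of all 32851 windows. CCCNNGGG, which reads the same on both strands, was present in 2 of the 43 (4.65%), in 2.74% of Olfr windows and in 11.8% of all. The median GC share was 34.0% in Olfr windows and 52.4% in all, and its part in these shares was not tested. In all, 4 forms were searched: TAATTA alone was in 9.30% and TAATNA in 53.5% of the 43 windows, against 18.0% and 63.8% of Olfr windows and 4.84% and 24.4% of all. Of the 6 leading receptors whose RefSeq start lay within 5 bases of an assembled transcript start in the deposited annotation, 2 held a match to one of the first 2 forms, and 4 held the looser TAATNA. The 2 windows are printed for that reason, with the letters of the first 2 forms in capitals, 5′ to 3′ in the direction of the gene. Olfr860 (minus strand, chr9:19849748-19849997) led the Early Immature Neuron D192 at 9610 FPKM, with Lhx2 at 113 and Emx2 at 49.8, and its matches begin 182 and 65 bases before the start. Olfr330 (minus strand, chr11:58534826-58535075) led the Early Immature Neuron D417 at 3953 FPKM, with Lhx2 at 113 and Emx2 at 316.9, and its match to CCCNNGGG begins 129 bases before the start.
Olfr860: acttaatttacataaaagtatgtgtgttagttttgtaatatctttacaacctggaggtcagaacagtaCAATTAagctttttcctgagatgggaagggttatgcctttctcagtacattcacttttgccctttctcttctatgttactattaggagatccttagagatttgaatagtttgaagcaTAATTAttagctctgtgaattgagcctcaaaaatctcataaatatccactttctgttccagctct
Olfr330: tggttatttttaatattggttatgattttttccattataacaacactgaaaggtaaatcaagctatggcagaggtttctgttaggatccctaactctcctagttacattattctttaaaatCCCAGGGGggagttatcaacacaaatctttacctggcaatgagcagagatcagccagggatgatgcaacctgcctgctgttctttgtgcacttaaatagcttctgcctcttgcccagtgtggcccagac
Matches of so few letters are a description of the windows, and no binding was measured. The positions listed for Olfr860 (chr9:19841408-19845978) and Olfr330 (chr11:58529037-58529984) as leading receptors do not reach these windows. Whether the assembled transcript that starts at each window carried the FPKM of its receptor was not tested. The 4 other windows (Olfr60, Olfr325, Olfr661 and Olfr876) held neither of the first 2 forms. Their receptors led the first libraries of D230, D233, D371 and D187.

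The partners of Lhx2 and Ldb1 were followed as a list of 24 genes, of which 16 were detected in some cell. Of the 11 other LIM homeodomain genes, 8 were not detected in any of the 85 cells (Lhx1, Lhx3, Lhx4, Lhx5, Lhx8, Lhx9, Lmx1a and Lmx1b). The remaining 3 were Isl1 (detected in 3 cells), Lhx6 (2) and Isl2 (1), so that Lhx2 was the only gene of this family detected in more than 3 cells. From Progenitor to Precursor, 7 of the 24 were measured, 3 were higher (background over all genes compared 20.1%) and 0 lower (21.6%), with a median of 0.90 against -0.03 over all genes. From Precursor to Early Immature Neuron, 8 were measured, 6 were higher (background 22.0%) and 2 lower (28.0%), with a median of 2.30 against -0.26. The 6 included all 4 Ebf genes. Of the 3 LIM cofactors measured in that pair, 1 was higher and 2 were lower, with a median of -1.045. From Early to Late Immature Neuron, 1 of 8 was higher (background 32.5%) and 2 lower (16.0%). From Late Immature to Mature Neuron, 0 of 8 were higher (background 4.54%) and 2 lower (32.7%). From Progenitor to Mature Neuron, 5 of 8 were higher (background 25.2%) and 1 lower (46.3%), and 4 of these 5 were Ebf genes.

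Among cofactors, Ssbp2 and Ssbp3, single-stranded DNA binding proteins that protect Ldb1 from degradation, had different courses. Ssbp2 had a median FPKM of 3.12 in Progenitor and 2.33 in Precursor cells and of 414 in Early Immature Neuron cells, where it was detected in 27 of 27. Its mean log2 level was 4.93 units higher there than in Precursor cells, and 2.13 units lower in Late Immature than in Early Immature Neuron cells (-2.13). Ssbp3 had the direction of Lhx2 in the first 2 pairs of stages: it was 1.83 units higher in Precursor than in Progenitor cells, and -1.28 from there to Early Immature Neuron. It differed by -2.42 from Late Immature to Mature Neuron, where it was detected in 11 of 25 cells. Rlim, a ubiquitin ligase that targets Ldb1, differed by -1.05 between Precursor and Early Immature Neuron cells. Ldb2, the paralog of Ldb1, was detected in 1 of 85 cells, a Mature Neuron, at an FPKM of 112.

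The LIM only proteins compete with LIM homeodomain factors for Ldb1. Lmo4 had a median FPKM of 0.479 in Precursor and 28.2 in Early Immature Neuron cells, a difference of 2.40 log2 units, and it differed by -2.03 from there to Late Immature Neuron. Lmo1 was detected in 4 of 9 Precursor cells, 8 of 27 Early Immature, 1 of 13 Late Immature and 0 of 25 Mature Neuron cells. Lmo2 was detected in 0 of 11 Progenitor cells and in 8 of 13 Late Immature Neuron cells.

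The 4 Ebf genes were all at least 1 unit higher in Early Immature Neuron than in Precursor cells, where 22.0% of genes were. The differences were 2.64 (Ebf1), 1.14 (Ebf2), 2.19 (Ebf3) and 4.48 (Ebf4), and 20.2% of genes were as high as Ebf2. Ebf2 and Ebf3 were also higher in Precursor than in Progenitor cells, by 2.23 and 1.88. In that pair Lhx2 was higher by 2.14, and 20.1% of genes were at least 1 unit higher. Unlike Lhx2, all 4 stood higher in Mature Neuron than in Progenitor cells, by 2.89, 3.73, 3.92 and 4.84, where 25.2% of genes did. Ebf4 was the last to appear: it was detected in 0 of 20 Progenitor and Precursor cells, in 22 of 27 Early Immature and in 13 of 13 Late Immature Neuron cells, with median FPKM of 47.3 and 96.7.

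**Figure D4:**
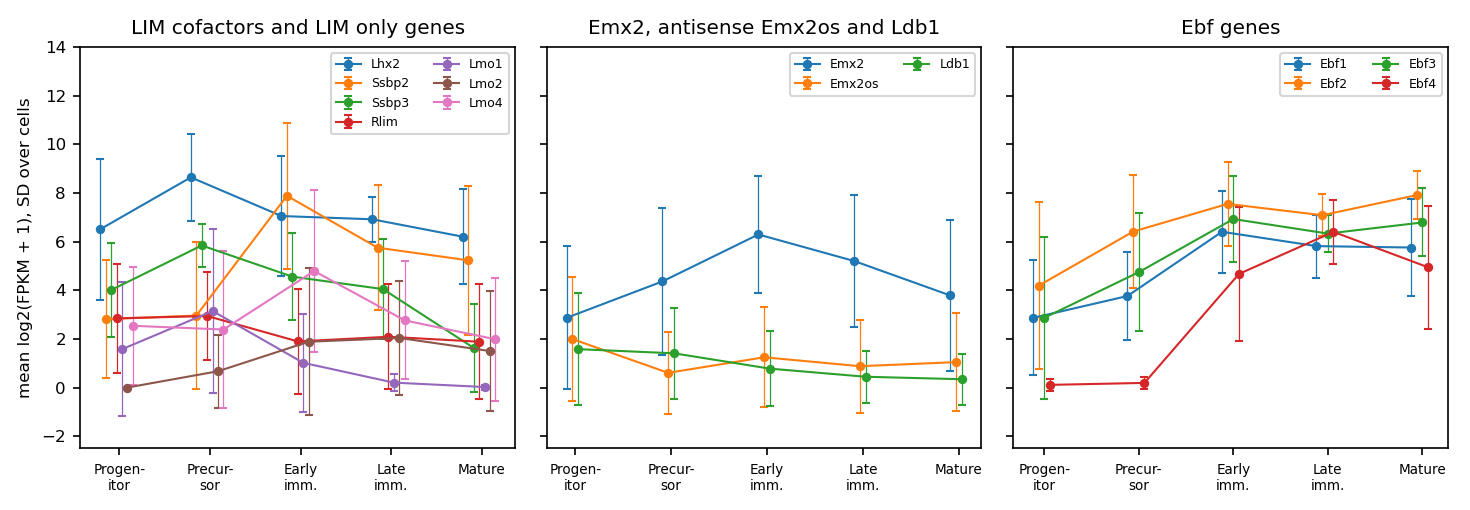
Mean log2(FPKM + 1) with SD over cells (vertical axis) by stage (horizontal axis) for Lhx2 with LIM cofactors and LIM only genes, for Emx2 with Emx2os and Ldb1, and for the Ebf genes. Lhx2 peaks in Precursor cells, Ssbp2, Lmo4 and Emx2 in Early Immature Neuron cells, and Ebf4 is near 0 before the neuronal stages; SD bars below 0 are a property of the bar, not of the data.

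Genes whose level went most with that of a member over all 85 cells were ranked by Spearman's rho among 5489 genes, as a description over cells that share stage, library and scaling. For Lhx2 they were Dpysl5 (0.59), a collapsin response mediator protein of growing neurites, followed by Fezf1 (0.56), Mex3a (0.56), Crabp1 (0.56) and Prex1 (0.56). Fezf1 is a zinc finger factor needed in olfactory neuron development, and Crabp1 binds retinoic acid. Over the same cells rho between Lhx2 and Emx2 was 0.21, and between Lhx2 and Ldb1 0.22. For Emx2 the closest genes were Dctn1 (0.51), a dynactin subunit, Dennd5a (0.48), Cacna1b (0.48), a voltage-gated calcium channel subunit, Arl14epl (0.47) and Cotl1 (0.45). Over the 65 neurons, 3 of the 5 genes for Lhx2 and 1 of the 5 for Emx2 were again among the 5 closest.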

How the data were processed

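The submitters' processing notes name mm10, the spliced aligner TopHat2 2.0.14, the quantifier Cufflinks 2.2.1, the trimmers cutadapt 1.2.1 and Trim Galore, and CASAVA 1.8.2. How libraries were scaled to each other is not stated. The authors deposited FPKM for 32975 entries in 93 libraries. The authors' annotation gives other values, the positions of genes. A symbol with several entries was taken at its highest FPKM. Means of log2(FPKM + 1) over cells were subtracted (later minus earlier stage, 5 pairs) for genes with an FPKM of 1 or more in 50% or more of the cells in one or both stages, and 1 log2 unit was called by size. This scale understates differences of low genes. Shares have exact Clopper-Pearson 95% intervals, and depth was estimated from steps between low FPKM values (tolerance 5%). Replicate numbers in the labels are cell names and pair nothing.

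The 4 genes, the 24 partners and the marker lists were chosen with earlier results of these data known. Named genes were the 4 genes, Emx2os, listed partners past 1 log2 unit or detected, stage landmarks (Omp, Gap43 and 1 that is not reported here), and for each member detected in at least 25% of cells the 5 genes with the highest rho over the 85 cells (Olfr, Gm, Rik, mitochondrial and ribosomal protein genes left out, each at an FPKM of at least 1 in at least 25% of cells). Other partners, Pprc1, single cells, leading receptors and motif forms were named after their values were seen. Promoter windows are from RefSeq (GRCm38.p6). Alternatives changed the pseudocount (0.1, 10), scaling, threshold, cells and measure of receptor RNA. The procedure was tested on simulated data. Python 3.11.15, numpy 2.4.6, pandas 2.3.3, scipy 1.17.1 and matplotlib 3.10.9 were used.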

Additional observations from a re-analysis of the deposited data

Results flagged for a closer look

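In the 9 Precursor cells, the only stage small enough for the comparison of a single cell's gap with Dixon's 95% critical value (4 genes tested, 2 cells picked out), Lhx2 in D383 was far below the others: 19.7 FPKM, against 194 to 1323 in the other 8 cells. Emx1 in D178 was far above them, at 104 FPKM against 0 to 0.105. Chance picks out about 5% of groups of spread values. That rate does not apply to Emx1, which was listed at 0 in 7 of the 9 cells, so that any single cell with the RNA would stand out.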

How the results depend on the processing

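No paired analysis was possible because the numbers in the labels name single cells and no number is shared between stages. The direction and call of Lhx2 between Progenitor and Precursor (1.23 to 2.79) and between Precursor and Early Immature Neuron (-1.89 to -1.23) held under every alternative run. Other calls did not. Emx2 went under 1 unit with a pseudocount of 10 from Progenitor to Precursor (0.83), from Early to Late Immature Neuron (-0.79, and -0.95 with size factors) and from Late Immature to Mature Neuron (-0.78). Lhx2 from Late Immature to Mature Neuron passed 1 unit when FPKM were rescaled without mitochondrial and Olfr genes (-1.41), which moved the median of all genes compared from -0.58 to -1.16. From Progenitor to Mature Neuron it passed with that scaling (-1.03) and in D316 to D434 (-1.12). Leaving out the cells with S100a8 and S100a9 (-1.06) kept the same 3 Progenitor cells as D316 to D434, so these are not separate checks. Emx2 passed from Progenitor to Mature Neuron with a pseudocount of 0.1 (1.26), in D316 to D434 (1.37) and with medians (1.56). Ldb1 from Late Immature to Mature Neuron was 1.78 in D316 to D434. At an FPKM of at least 0.1, the share of Early Immature Neuron cells with Lhx2 was 100%. At that threshold, cells with Ldb1 were 72.7% of Progenitor, 48.1% of Early and 38.5% of Late Immature Neuron cells. Ldb1 was listed at 0 in 21 of 25 Mature Neuron cells. Cells with Emx2 at 0.1 or more were 100% of Precursor, Early and Late Immature and 88.0% of Mature Neuron cells. In D316 to D434, Ldb1 was in 0% of Late Immature and 50% of Mature, Emx1 in 0% of Precursor, and Emx2 in 100% of Late Immature and Mature Neuron cells. With all genes above 0 in any cell, the shares of 18496 genes higher and lower were 7.48% and 8.61% (Progenitor to Precursor), 8.94% and 9.42% (to Early Immature), 9.74% and 5.99% (Early to Late), 1.85% and 10.1% (Late to Mature) and 10.07% and 17.1% (Progenitor to Mature). Asking for 2 units among the genes compared left 4.65% and 5.46%, 9.06% and 9.46%, 11.5% and 3.91%, 0.209% and 7.09%, and 15.2% and 24.8% in the same order of pairs. With partners detected in any cell, 2 were higher from Early to Late Immature and 2 lower from Progenitor to Mature Neuron. Over neurons, Lhx2 against summed Olfr had a Pearson's r of 0.0179, a rho of -0.27 without cells with sustentacular RNA and 0.21 in Mature Neuron cells; Ldb1 had -0.51 in Early and 0.38 in Late Immature; Emx2 had 0.29 in D316 to D434, 0.26 in Early Immature and 0.0100 in Mature Neuron cells. Adding all entries of a receptor symbol was an alternative chosen after seeing the data, and no counting spread applies to such coefficients. The cause of these changes was not tested, beyond the fewer cells or genes that some alternatives keep. Depth limits Ldb1, Emx1 and low Emx2 values most.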
